A study of Homo sapiens with 16 samples.

Results

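The 8 genes described here are BIRC2, BIRC3, BIRC5, BIRC7 and XIAP, which encode inhibitor of apoptosis proteins (IAPs), and TRAF1, TRAF2 and TRAF3, which encode TNF receptor associated factors. They were taken as a named list of cell survival genes, put together with earlier results of these data known, and are 8 of the 19962 protein-coding genes on the autosomes and chromosome X. The measurement was ChIP-Seq of p65, the RELA subunit of NFκB, in HT29 and SW480, 2 established lines from human colorectal adenocarcinoma. Cells of each line stably carried either ERβ (estrogen receptor beta, encoded by ESR2) or an empty vector (mock), which gave 4 groups: HT29 mock, HT29 ERβ, SW480 mock and SW480 ERβ. Each group had 3 ChIP libraries and 1 input library, and the cells of all 4 groups grew with blasticidin and received TNFα at 30 ng/ml for 30 minutes before crosslinking. No library of cells without TNFα was analysed here, so every value below describes TNFα-treated cells. The promoter that drives ERβ and the number of clones behind each line are not given in the sources used here. The study calls the 3 libraries of a group biological replicates, the labels name no separate cultures, and p-values measure only the spread between these libraries.

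NFκB dimers wait in the cytoplasm until a receptor such as that for TNFα is engaged, and then enter the nucleus and bind κB sites in DNA. Several IAP and TRAF proteins act in that same pathway. TRAF2 is recruited to TNF receptors and brings along cIAP1 (encoded by BIRC2) and cIAP2 (encoded by BIRC3), ubiquitin ligases that keep the receptor complex on the survival branch, while TRAF3 works with them to hold back the noncanonical NFκB pathway. TRAF1 is an adaptor that pairs with TRAF2, XIAP blocks caspases directly, BIRC5 (survivin) is best known for its role in cell division, and BIRC7 (livin) is an IAP with restricted expression. BIRC3 and TRAF1 are textbook NFκB target genes.

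Signal is the density of ChIP tags per base after the authors had brought every library to 10 M tags. It was averaged in bins of 200 bp over each gene on GRCh38, with 50 kb added before the start and 10 kb after the end. A bin was listed for a group when its mean over the 3 libraries was at least 2 and at least 4 times the input of that group. The 8 loci held 3793 of the 15155200 bins of the genome, and 44 of them (1.16%) were listed in at least 1 group, against 12569 bins (0.0829%) over the genome. Adjacent listed bins formed 19 sites, all described below by the distance from the start of the gene to the centre of their highest bin, with a negative distance upstream. The number of tags behind a value cannot be read from the scaled tracks, so depth is unknown here and no counting interval is given.

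Bins at BIRC3, BIRC2, TRAF1, TRAF2 and TRAF3 are shown here because the comparisons turn on them. Each is the GRCh38 plus strand read 5′ to 3′, and capitals mark matches to the κB consensus, a pattern of 10 bases with degenerate positions that was searched on both strands. The BIRC3 bin (chr11:102317201-102317400) and the BIRC2 bin (chr11:102346001-102346200) lie upstream of 2 neighbouring genes on the same strand, the TRAF1 bin (chr9:120928401-120928600) and both TRAF2 bins (chr9:136885001-136885200 and chr9:136902401-136902600) lie in introns of their genes, and the TRAF3 bin (chr14:102799801-102800000) lies in an intron of TRAF3.
BIRC3, -183 bp: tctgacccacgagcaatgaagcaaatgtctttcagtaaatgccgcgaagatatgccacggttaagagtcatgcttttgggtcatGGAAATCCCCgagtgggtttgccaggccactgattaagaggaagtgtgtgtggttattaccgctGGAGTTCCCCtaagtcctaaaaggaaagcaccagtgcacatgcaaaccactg
BIRC2, -1110 bp: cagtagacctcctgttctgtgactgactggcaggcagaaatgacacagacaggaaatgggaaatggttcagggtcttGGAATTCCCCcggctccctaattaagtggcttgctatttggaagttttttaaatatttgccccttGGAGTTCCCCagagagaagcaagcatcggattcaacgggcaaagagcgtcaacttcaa
TRAF1, 672 bp: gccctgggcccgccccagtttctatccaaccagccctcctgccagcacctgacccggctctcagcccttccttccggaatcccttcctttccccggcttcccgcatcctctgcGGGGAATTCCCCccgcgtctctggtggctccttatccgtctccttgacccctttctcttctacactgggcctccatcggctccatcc
TRAF2, 3189 bp: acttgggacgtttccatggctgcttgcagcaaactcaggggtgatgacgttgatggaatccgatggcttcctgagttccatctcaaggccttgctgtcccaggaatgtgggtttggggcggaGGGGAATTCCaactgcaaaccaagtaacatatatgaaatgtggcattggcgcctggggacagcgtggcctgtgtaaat
TRAF2, 20589 bp: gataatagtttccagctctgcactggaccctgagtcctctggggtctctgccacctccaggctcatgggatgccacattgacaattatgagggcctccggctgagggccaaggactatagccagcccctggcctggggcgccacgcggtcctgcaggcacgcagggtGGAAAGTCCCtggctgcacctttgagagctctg
TRAF3, 22452 bp: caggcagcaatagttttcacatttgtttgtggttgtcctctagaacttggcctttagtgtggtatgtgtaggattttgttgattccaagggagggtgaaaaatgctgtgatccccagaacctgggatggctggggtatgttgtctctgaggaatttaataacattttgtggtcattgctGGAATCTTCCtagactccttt

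The BIRC3 and BIRC2 bins each held 2 κB matches at nearly the same spacing, 64 bp from first base to first base at BIRC3 and 65 bp at BIRC2. The downstream match, GGAGTTCCCC, was the same in both genes (chr11:102317349-102317358 and chr11:102346143-102346152), and the upstream matches were GGAAATCCCC at BIRC3 and GGAATTCCCC at BIRC2. The TRAF1 bin held GGGGAATTCCCC, which contains 3 overlapping matches. At the TRAF3 start, GGGGATTTCC (chr14:102777416-102777425) lay upstream of the annotated start and GGGACTTTCC (chr14:102777529-102777538) lay in the 5′ UTR. A κB match was found in 15 of the 19 sites. The sites without one were at BIRC2 (-310 bp), BIRC7 (-2982 bp), TRAF2 (19189 bp) and XIAP (-34411 bp). Counted by bin, 17 of the 44 listed bins (38.6%) held a κB match, the same share as among the 12569 listed bins of the genome (38.6%), while 5.45% of the bins 1 kb to either side of listed bins held one. The AP-1 motif, searched as TGACTCA and TGAGTCA, was present in 3 of the 44 bins (6.82%), at TRAF1 (2872 bp), TRAF2 (789 bp) and XIAP (-34611 bp, in the site named by its bin at -34411 bp), against 9.88% of listed bins of the genome and 3.18% of the flanking bins.

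Some facts of the whole series bear on the values below. The ERβ label was checked by signal over the coding exons of ESR2 divided by that over its introns, which was 4.09 to 7.20 in HT29 ERβ against 1.08 to 1.35 in HT29 mock, and 2.38 to 3.02 in SW480 ERβ against 1.28 to 1.58 in SW480 mock. The inputs were closer, at 2.12 for HT29 ERβ against 1.17 for HT29 mock and at 1.78 for SW480 ERβ against 1.54 for SW480 mock. The median ratio of a library to the mean library over the 19580 bins tested was 1.5 in HT29 mock 1, 1.3 in HT29 ERβ 1, 1.49 in SW480 ERβ 2 and 1.39 in SW480 ERβ 3. It lay between 0.589 and 0.881 in the other 8 libraries, so these 4 libraries stood apart at bound bins generally, although median signal in unbound bins was 0.285 to 0.30 in every library. Dividing by this ratio sets the typical tested bin alike in all libraries. Such division removes any change that most tested bins share, and cannot tell that change from a difference between libraries. The paper lists the ERβ inputs under another data series, while the labels hold all 4 inputs with this one and name no batch.

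By group, 25 bins were listed in HT29 mock, 19 in HT29 ERβ, 12 in SW480 mock and 36 in SW480 ERβ, and the share of all genome bins listed had the same order (0.0404%, 0.0268%, 0.00989% and 0.0632%). Each listing rests on 1 input library, so groups of like signal can differ in it. At the TRAF2 bin at 20389 bp the means were 5.11 in HT29 mock and 4.78 in HT29 ERβ. Their inputs were 0.460 and 1.23, and HT29 mock alone listed that bin. Of the 44 bins, 7 were listed in all 4 groups and lay at BIRC3, BIRC2, TRAF3 and TRAF2. SW480 ERβ alone listed 13 bins, both HT29 groups and SW480 ERβ together listed 9, the SW480 groups alone 5, HT29 mock alone 5, and the other 5 had other combinations. These combinations were not counted over the genome, so they are not read as a trait of these loci. TRAF2 had 11 listed bins, the BIRC2 and BIRC3 loci, which overlap, had 10, TRAF3 had 8, TRAF1 and BIRC5 had 5 each, XIAP had 4 and BIRC7 had 1. TRAF3 listed 1 bin in each HT29 group, 4 in SW480 mock and 8 in SW480 ERβ, whereas TRAF1 and XIAP listed bins in all groups but SW480 mock. Of the 19 sites, 5 lay within 1 kb of the start of their gene and 9 lay more than 10 kb away.

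**Figure D1:**
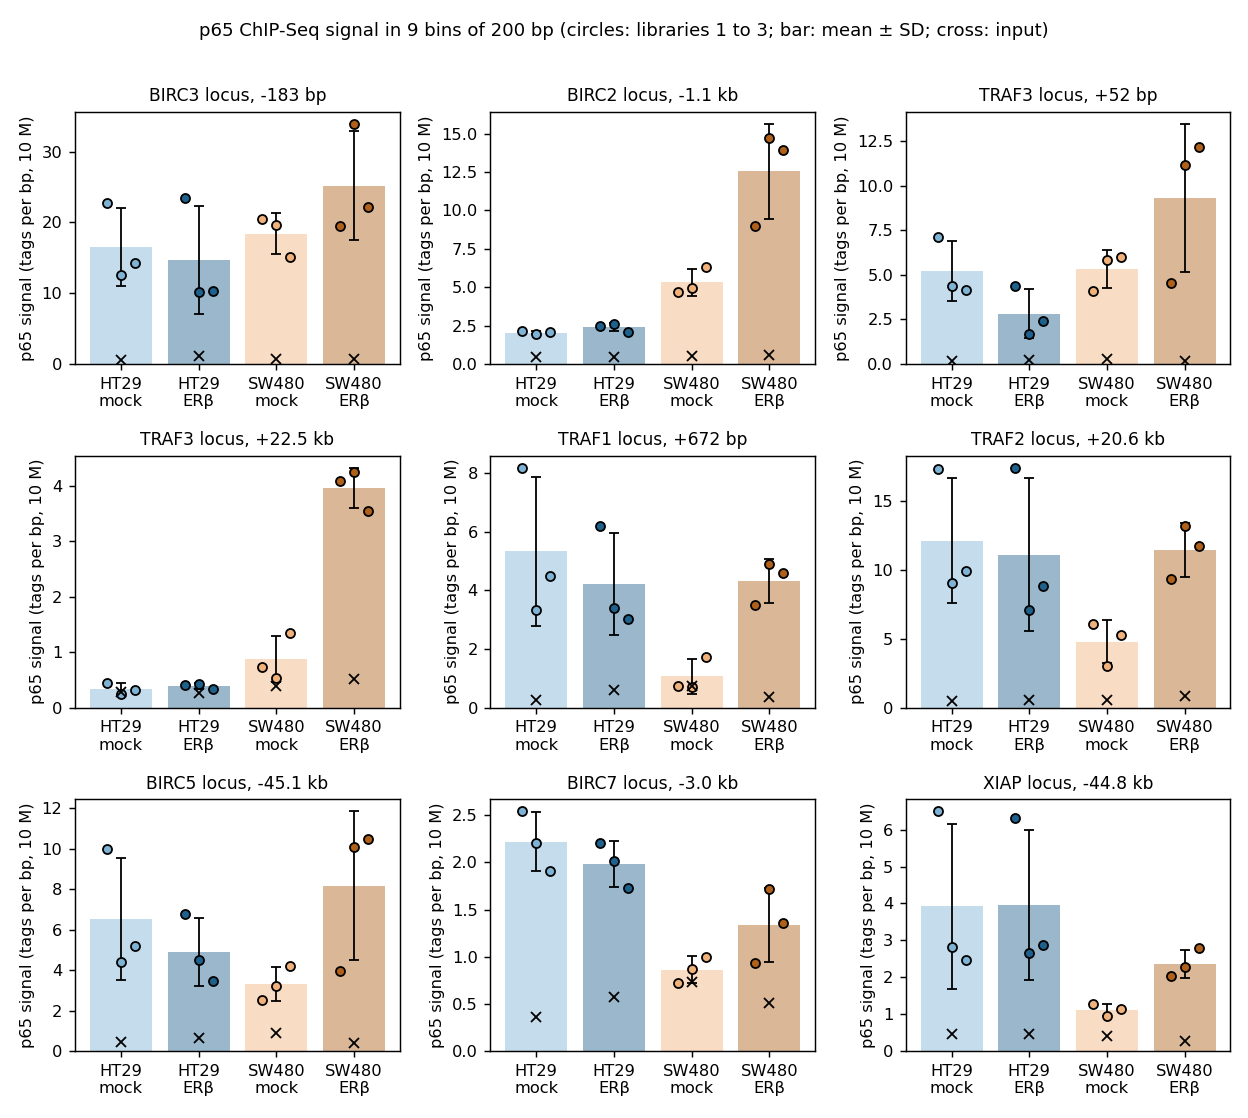
p65 ChIP signal (tags per base at 10 M tags) at 9 bins of 200 bp in the 4 groups; circles are libraries 1 to 3, bars are the mean ± SD and crosses are the input of the group. The BIRC3 bin lay between 10.2 and 33.9 in all 12 libraries, the BIRC2 bin rose to 8.99 to 14.7 in SW480 ERβ, and the TRAF3 bin in the intron at 22452 bp was above 1.34 in no library but those of SW480 ERβ.

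Groups were compared by limma on log2(signal + 1) over the 19580 bins of the genome with a mean over the 12 ChIP libraries of at least 1 and at least 2 times input, and p-values were adjusted by the method of Benjamini and Hochberg over all of them. A difference below is a difference of group means on this log2 scale, with its standard error (SE), and is called when the adjusted p is under 0.05. The fits left replicate number out, also within a line, unless a replicate block is named. Between the lines the numbers are not pairs, so there the block is only another setting of the fit. Of the bins in the 8 loci 64 were tested, including 42 of the 44 listed ones. On the libraries of 1 line alone, 33 of the 64 bins met the limits in both lines, 13 in HT29 alone and 18 in SW480 alone, and bins of the last 2 kinds were bound to lean to the line where they were high. Neighbouring bins of a site also share fragments, so the counts describe the loci and are read beside the share of all tested bins.

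Between the mock lines, 11 of the 64 bins (17.2%) were higher and 18 (28.1%) lower in SW480 than in HT29, beside 8.18% higher and 28.3% lower of all tested bins. The median difference was -0.35 over the 64 bins and -0.32 over all. The higher bins were 8 of 12 at TRAF3, 2 of 7 at BIRC5 and 1 of 4 at BIRC2. The lower bins were 5 of 6 at TRAF1, 6 of 18 at TRAF2, 3 of 8 at BIRC3, 2 of 7 at XIAP and both bins at BIRC7. Most TRAF3 bins and some at BIRC5 and BIRC2 met the filter through the SW480 libraries alone. Some bins at TRAF1, TRAF2, BIRC3, XIAP and BIRC7 met it through the HT29 libraries alone. Such bins were bound to lean to that line, so these tallies are a description. After each library was divided by its median ratio, the split was 20 higher and 12 lower, beside 24.3% and 22.6% of all tested bins, with a median of 0.02 over all.

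With ERβ in HT29 no bin of the 64 was called by limma, and none of all 19580 (0% in either direction). The count at an unadjusted p under 0.05 was 0 of the 64 and 245 of all. The median difference was -0.10 over the 64 bins and -0.13 over all. With replicate number as a block, 1 bin of the 64 was called lower, at the start of TRAF3, beside 10 bins of the genome higher and 134 lower.

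With ERβ in SW480, 25 of the 64 bins (39.1%) were higher and none lower, beside 31.8% higher and 0.0153% lower of all tested bins. The median difference was 0.56 over the 64 bins and 0.48 over all, and 62 of the 64 lay above 0. No share of all tested bins above 0 is set beside that count, so it is not read as a trait of these loci. The called bins were 5 of 6 at TRAF1, 8 of 18 at TRAF2, 4 of 12 at TRAF3, 3 of 7 at BIRC5, 3 of 7 at XIAP and 2 of 4 at BIRC2, and none of 8 at BIRC3 or of 2 at BIRC7. The count depended on the scaling chosen. Scaling by the median signal of unbound bins gave 22 (34.4%), beside 29.7% of all tested bins. Its factors were 0.97 to 1.02, so it changed the values little and could not remove a difference between libraries at bound bins. Division by the median ratio removes a change shared by most tested bins. After division by the median ratio the median over all tested bins moved to -0.05 and 2 bins of the 64 were higher and 1 lower, beside 3.48% and 0.868% of all. Single libraries moved it too, to 8 without SW480 mock 2, 10 without SW480 ERβ 2, 13 without SW480 ERβ 3 or SW480 mock 1, and 42 without SW480 ERβ 1, beside 15.5%, 14.4%, 14.8%, 12.8% and 63.9% of all tested bins in that order. With the replicate block it was 33 (51.6%), beside 46.3% of all tested bins.

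The ERβ effect in SW480 minus that in HT29 was above 0 in 63 of the 64 bins, with a median of 0.72 against 0.62 over all tested bins. No share of all tested bins above 0 is set beside this count, so it is not read as a trait of these loci. The difference of effects was called higher in 4 bins (6.25%), 2 at TRAF1 and 1 each at TRAF2 and TRAF3, beside 7.82% higher and 0% lower of all tested bins. With the replicate block 35 of the 64 (54.7%) were called, beside 47.3% higher and 0.0255% lower of all tested bins (and 15 in place of 4 of the 19 highest bins of the sites), and after division by the median ratio none, with the median over all tested bins at -0.04. Leaving out 1 library gave counts from 0 (without SW480 mock 2) to 21 (without HT29 ERβ 1), with 16 without SW480 ERβ 1, 7 without HT29 mock 2, 2 without SW480 mock 3 and 1 without each of HT29 mock 1, HT29 ERβ 2, HT29 ERβ 3, SW480 mock 1, SW480 ERβ 2 and SW480 ERβ 3, beside 2.40% to 30.4% of all tested bins under these settings.

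Between the ERβ groups, 19 of the 64 bins (29.7%) were higher and 3 (4.69%) lower in SW480 than in HT29, beside 27.1% and 8.98% of all tested bins. The higher bins were 10 of 12 at TRAF3, all 4 at BIRC2, 2 each at BIRC5 and TRAF2, and 1 at TRAF1. The lower ones were 2 at TRAF2 and 1 at BIRC3. Most TRAF3 bins and some at BIRC2, BIRC5, TRAF2 and TRAF1 met the filter through the SW480 libraries alone, and some at TRAF2 and BIRC3 through the HT29 libraries alone. These tallies too are a description. After division by the median ratio 20 were higher and 14 lower, beside 25.7% and 24.9% of all, with the median over all tested bins moving from 0.33 to 0, and without SW480 ERβ 3 the count of calls was 14, beside 23.3% of all.

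**Figure D2:**
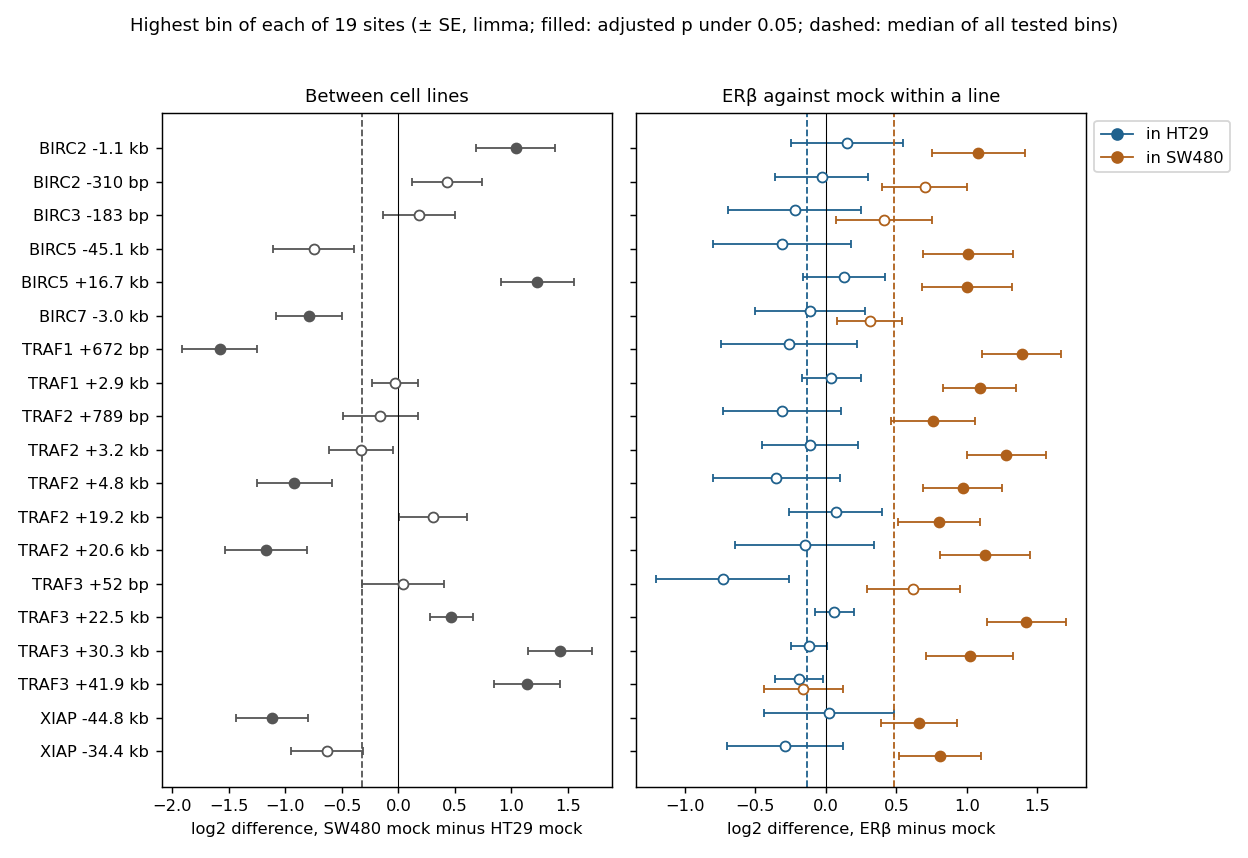
Differences in log2(signal + 1) ± SE at the highest bin of each of the 19 sites, on the left SW480 mock minus HT29 mock and on the right ERβ minus mock in HT29 and in SW480. Filled points have a limma adjusted p under 0.05. This holds for 10 sites on the left and, on the right, for none in HT29 and 14 in SW480. Of all tested bins 8.18% were higher and 28.3% lower on the left, and 0% in HT29 and 31.8% higher in SW480 on the right. Sites were picked for high signal. With only the 12569 listed bins of the genome tested, these shares were 12.7% and 29.3%, 0% and 47.9%. Dashed lines mark the medians over all tested bins (-0.32, -0.13 and 0.48).

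BIRC3, the cIAP2 gene (chr11:102317484-102339403, plus strand), had the highest signal of the 8 loci in every group, and its bin at -183 bp ranked 6 of the 19580 tested bins by mean signal. The annotation places this bin in an intron of ENSG00000288528. The signal was 22.8, 12.6 and 14.2 in the HT29 mock libraries, 23.5, 10.2 and 10.3 in HT29 ERβ, 20.5, 19.6 and 15.1 in SW480 mock, and 19.5, 33.9 and 22.2 in SW480 ERβ. Every pair of groups overlapped, with SW480 ERβ 2 the highest library. The means were 28.9, 13.2, 26.6 and 36.2 times their inputs. SW480 mock minus HT29 mock was 0.18 (SE 0.32, limma adjusted p = 0.689), and after division by the median ratio it was 0.73 (limma adjusted p = 0.000127), one of the 3 of 17 alternatives that called it. The ERβ difference was -0.22 (SE 0.47, limma adjusted p = 1.00) in HT29 and 0.41 (SE 0.34, limma adjusted p = 0.324) in SW480, and the difference between these effects was 0.63 (SE 0.51, limma adjusted p = 0.358). After division by the median ratio the SW480 value was -0.43, while 1 of 16 alternatives called SW480 ERβ higher. SW480 ERβ minus HT29 ERβ was 0.81 (limma adjusted p = 0.132), called in 4 of 17 alternatives. Without the HT29 libraries numbered 1, SW480 mock was higher than HT29 mock at this bin by 0.42 (limma adjusted p = 0.0297). Leaving out HT29 mock 1 alone is the same fit here, so this fit is counted 2 times among the 17 alternatives.

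The BIRC3 site spanned 5 bins (chr11:102316801-102317800), and its upstream shoulder was lower in SW480 mock than in HT29 mock in a call that depended on the processing. The bin at -583 bp was at 3.27, 1.91 and 1.26 in HT29 mock and at 0.696, 0.650 and 1.14 in SW480 mock, with no overlap (difference -0.74, limma adjusted p = 0.0289). It met the filter through the HT29 libraries alone, so SW480 had to be lower there and the test is no independent support. The bin at -383 bp differed by -0.85 (limma adjusted p = 0.0484). Without the HT29 libraries numbered 1 these values were -0.50 (limma adjusted p = 0.0651) and -0.57 (limma adjusted p = 0.0453). Division by the median ratio gave -0.45 (limma adjusted p = 0.0738) and -0.38 (limma adjusted p = 0.102), and the calls were lost in 6 and 8 of 17 alternatives.

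BIRC2, the cIAP1 gene (chr11:102347211-102378670, plus strand), starts 29727 bp from the BIRC3 start. The highest bin of its site at -1110 bp lay outside any annotated exon or intron and ranked 638 of the tested bins, and the listed bin next to it at -910 bp overlapped an exon of ENSG00000288833. The signal was 2.12, 1.93 and 2.09 in HT29 mock, 2.50, 2.60 and 2.08 in HT29 ERβ, 4.68, 4.94 and 6.29 in SW480 mock, and 8.99, 14.7 and 13.9 in SW480 ERβ. Every SW480 mock library lay above every HT29 library, and every SW480 ERβ library lay above every SW480 mock library, while the HT29 groups overlapped. Means were 4.76, 5.12, 9.82 and 21.6 times input. SW480 mock was higher than HT29 mock by 1.04 (SE 0.35, limma adjusted p = 0.0109), and SW480 ERβ was higher than SW480 mock by 1.08 (SE 0.33, limma adjusted p = 0.00866). The ERβ difference in HT29 was 0.15 (SE 0.40, limma adjusted p = 1.00). The effects in the 2 lines differed by 0.93 (SE 0.54, limma adjusted p = 0.221), which was called with the replicate block (limma adjusted p = 0.00788). After division by the median ratio the SW480 ERβ difference was 0.31 (limma adjusted p = 0.396) and that between the lines' effects was -0.01. The SW480 ERβ call was also lost without SW480 mock 1, SW480 mock 2 or SW480 ERβ 3, and the mock call between the lines with the replicate block (limma adjusted p = 0.0504) and without SW480 mock 2 or 3.

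A second BIRC2 site at -310 bp was listed in SW480 ERβ alone and held no κB match. The site was picked through SW480 ERβ, so its tests with that group are no independent support. It was at 1.99, 1.11 and 1.16 in HT29 mock, 1.23, 1.28 and 1.53 in HT29 ERβ, 2.15, 1.49 and 3.29 in SW480 mock, and 4.21, 5.15 and 3.48 in SW480 ERβ. The SW480 ERβ libraries lay above all others. The ERβ difference in SW480 was 0.70 (SE 0.30, limma adjusted p = 0.0578, and 0.0116 with the replicate block), or 0.05 (limma adjusted p = 0.938) after division by the median ratio, and SW480 ERβ was higher than HT29 ERβ by 1.16 (limma adjusted p = 0.00632), a call lost with the replicate block (limma adjusted p = 0.0804) and without SW480 ERβ 2, in a bin that met the filter through the SW480 libraries alone.

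**Figure D3:**
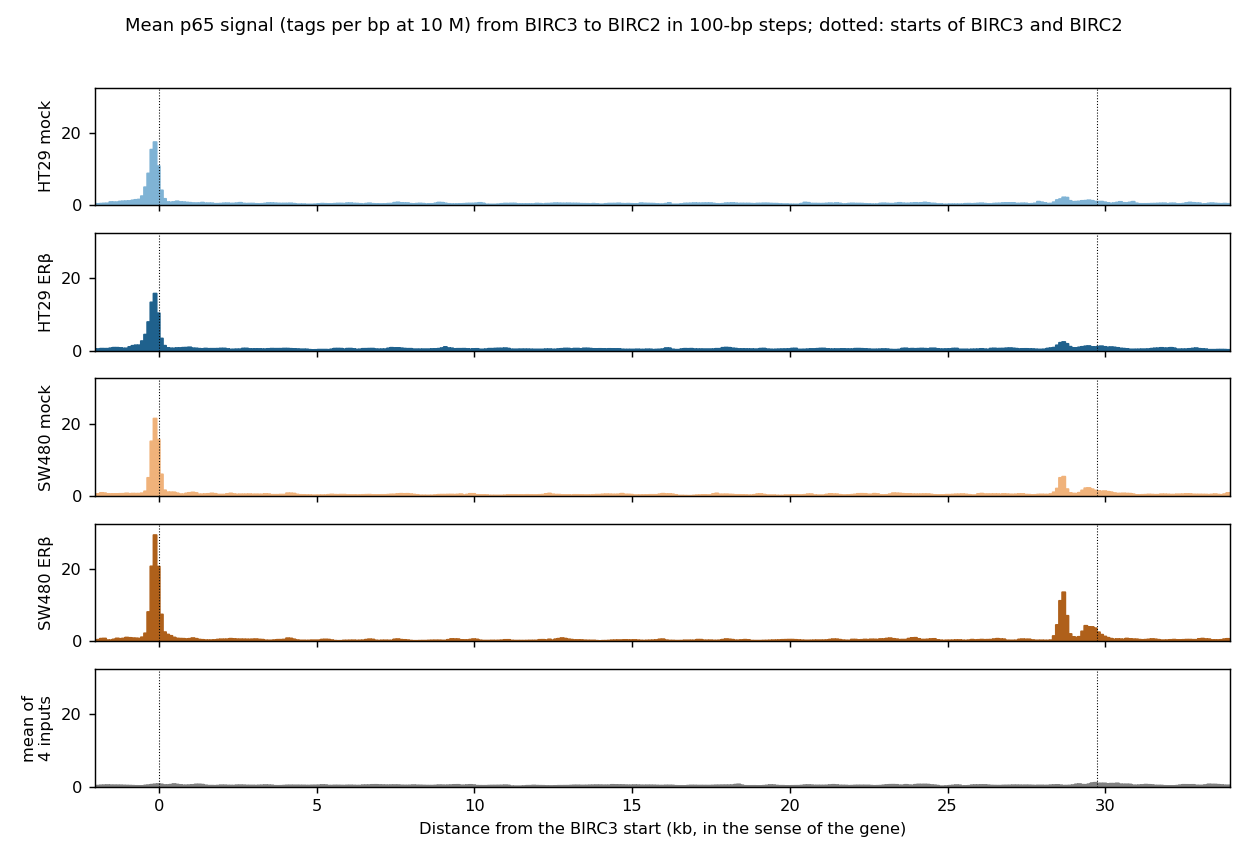
Mean p65 signal (tags per base at 10 M tags) of the 3 libraries of each group along the BIRC3 and BIRC2 genes, by distance from the BIRC3 start, with dotted lines at both gene starts and the mean of the 4 inputs in the bottom row. All 4 groups peak at BIRC3, where the bin means were 16.5, 14.7, 18.4 and 25.2, while the peak before BIRC2 is higher in SW480 mock (5.31) than in HT29 mock (2.05) and highest in SW480 ERβ (12.5).

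Set against its neighbour within each library, BIRC3 exceeded BIRC2 in all 12 libraries. Over the promoter, a window that opens 1 kb before the start and closes 100 bp past it, BIRC3 minus BIRC2 on the log2 scale was 2.03, 1.44 and 1.45 in HT29 mock (1.64 ± 0.34, SD, n = 3), 2.27, 1.14 and 1.18 in HT29 ERβ (1.53 ± 0.64), 1.76, 1.68 and 1.13 in SW480 mock (1.52 ± 0.34) and 1.05, 1.34 and 1.19 in SW480 ERβ (1.19 ± 0.15). The ranges overlapped in each pair of groups compared here. By two-sided exact permutation test, whose smallest p with 3 against 3 is 0.1, SW480 ERβ differed from SW480 mock by -0.33 (p = 0.300), HT29 ERβ from HT29 mock by -0.11 (p = 0.600), the mock lines by -0.12 (p = 0.700) and the ERβ lines by -0.34 (p = 0.700). The highest bin of the BIRC2 site at -1110 bp lies outside this promoter window, and its neighbour at -910 bp lies within it. Taken at the highest bin of each gene, the margin was 2.48 ± 0.39, 2.11 ± 0.62, 1.62 ± 0.42 and 0.94 ± 0.27 in the same order. SW480 then lay below HT29 in every library pair, by -0.86 for mock and -1.17 for ERβ, both at the smallest exact permutation p of 0.1, and the ERβ change in SW480 was -0.67 (exact permutation p = 0.200). Within same-numbered pairs the ERβ changes were -0.88, -0.64 and -0.50 in SW480 and -0.12, -0.58 and -0.41 in HT29, below 0 in every pair of both lines, and the exact sign-flip permutation p was 0.250 in each line, the smallest that 3 pairs allow. This bin-level comparison and its pairing were added after the promoter values were seen.

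XIAP (chrX:123859712-123913972, plus strand), the caspase inhibitor, had no listed bin within 10 kb of its start, and its 2 sites were intergenic at -44811 and -34411 bp. The site at -44811 bp was at 6.49, 2.81 and 2.47 in HT29 mock, 6.30, 2.67 and 2.89 in HT29 ERβ, 1.29, 0.962 and 1.14 in SW480 mock, and 2.04, 2.29 and 2.79 in SW480 ERβ. Every SW480 mock library lay below every library of the other groups. SW480 mock was lower than HT29 mock (difference -1.12, SE 0.32, limma adjusted p = 0.00270), a call kept under all 17 alternatives. SW480 ERβ was higher than SW480 mock by 0.66 (SE 0.27, limma adjusted p = 0.0479), a call lost in 9 of 16 alternatives, with 0.12 after division by the median ratio. The site at -34411 bp was at 4.22, 1.59 and 2.74 in HT29 mock, 3.41, 1.33 and 1.69 in HT29 ERβ, 1.64, 1.56 and 1.02 in SW480 mock, and 1.40, 4.12 and 4.93 in SW480 ERβ. SW480 ERβ 1 lay within the mock range, and the ERβ difference in SW480 was 0.81 (SE 0.29, limma adjusted p = 0.0250), lost in 8 of 16 alternatives, with 0.19 after division by the median ratio.

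BIRC5, the survivin gene (chr17:78214186-78225636, plus strand), had no listed bin at its own start. Its locus held 2 sites, both nearer the start of another gene. The bin at -45085 bp spans the SYNGR2 start and held the κB match GGGGTTTTCC (chr17:78169081-78169090). It was at 9.99, 4.41 and 5.19 in HT29 mock, 6.78, 4.52 and 3.50 in HT29 ERβ, 2.52, 3.23 and 4.21 in SW480 mock, and 3.95, 10.1 and 10.5 in SW480 ERβ. The ERβ difference in SW480 was 1.01 (SE 0.32, limma adjusted p = 0.0123) although SW480 ERβ 1 lay within the SW480 mock range, and the mock lines differed by -0.75 (SE 0.36, limma adjusted p = 0.0857), which 5 of 17 alternatives called, with -1.37 (limma adjusted p = 0.00148) after division by input of the surrounding 100 kb and -0.29 after division by the median ratio. The bin at 16715 bp, at -409 bp from the TMEM235 start, was at 0.959, 1.08 and 0.905 in HT29 mock, 1.41, 0.610 and 1.64 in HT29 ERβ, 3.13, 3.15 and 4.85 in SW480 mock, and 6.63, 10.3 and 8.29 in SW480 ERβ. No SW480 library overlapped an HT29 library. SW480 mock was higher than HT29 mock by 1.23 (SE 0.32, limma adjusted p = 0.000794) and SW480 ERβ higher than SW480 mock by 1.00 (SE 0.32, limma adjusted p = 0.0120). The input over this locus was also higher in SW480 mock (0.635) than in HT29 mock (0.389), and with each library divided by the input of the surrounding 100 kb the mock difference was 0.70 (limma adjusted p = 0.0669). The ERβ calls at both bins were lost after division by the median ratio (0.28 and 0.27) and without any 1 of SW480 mock 1, SW480 mock 2, SW480 ERβ 2 or SW480 ERβ 3.

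BIRC7, the livin gene (chr20:63235883-63240495, plus strand), had 1 listed bin, at -2982 bp between genes, in HT29 mock alone. It was at 2.54, 2.21 and 1.91 in HT29 mock, 2.21, 2.02 and 1.73 in HT29 ERβ, 0.722, 0.874 and 1.00 in SW480 mock, and 0.931, 1.72 and 1.36 in SW480 ERβ. HT29 mock stood at 6.17 times input, HT29 ERβ just under the listing limits at a mean of 1.99 and 3.42 times input, SW480 mock at 1.18 and SW480 ERβ at 2.59 times input. Every HT29 library lay above every SW480 library. SW480 mock was lower than HT29 mock (difference -0.79, SE 0.29, limma adjusted p = 0.0230), a call lost without any 1 of the SW480 mock libraries. The adjacent bin at -3182 bp had more signal but stayed under the limit over input in HT29 mock, at 3.73 times. It was at 4.25, 2.90 and 3.71 in HT29 mock and at 0.764, 0.849 and 1.04 in SW480 mock, and differed by -1.29 (SE 0.31, limma adjusted p = 0.000374), but it met the filter through the HT29 libraries alone and was singled out after its values were seen, so this is a description. The ERβ difference at -2982 bp in SW480 was 0.31 (SE 0.23, limma adjusted p = 0.271). The bin of this locus with the highest mean, at -19582 bp by the YTHDF1 start, was neither listed nor tested. It stood at 0.908 and 1.17 times input in HT29 mock and HT29 ERβ, at 1.57 times in SW480 mock, and in SW480 ERβ at 4.75, 3.53 and 2.69, or 3.04 times input.

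TRAF1 (chr9:120902393-120929173, minus strand) had its highest bin at 672 bp, in its own intron, and this bin had the largest difference between the mock lines among the highest bins of the 19 sites. The signal was 8.19, 3.33 and 4.50 in HT29 mock, 6.21, 3.39 and 3.03 in HT29 ERβ, 0.737, 0.717 and 1.74 in SW480 mock, and 3.49, 4.89 and 4.61 in SW480 ERβ. SW480 mock lay below all other libraries at 1.47 times input, against 20.3 times in HT29 mock and 11.4 times in SW480 ERβ, and the other 3 groups overlapped. The inputs behind these folds also differed, at 0.724, 0.263 and 0.380 in that order. SW480 mock was lower than HT29 mock (difference -1.58, SE 0.33, limma adjusted p = 2.98e-05), and SW480 ERβ was higher than SW480 mock by 1.39 (SE 0.28, limma adjusted p = 0.000109). Both calls were kept under every alternative tried (17 and 16), including division by the median ratio, which gave 0.85 for the ERβ difference (limma adjusted p = 0.0207). The ERβ difference in HT29 was -0.26 (SE 0.48, limma adjusted p = 1.00). The effects in the 2 lines differed by 1.65 (SE 0.52, limma adjusted p = 0.0293), a call kept in 13 of 22 alternatives. A second site at 2872 bp, in a UTR exon of TRAF1 and 495 bp past another TRAF1 start, was listed in SW480 ERβ alone. It was at 0.898, 0.360 and 0.782 in HT29 mock, 0.580, 0.954 and 0.620 in HT29 ERβ, 0.363, 0.743 and 0.802 in SW480 mock, and 2.16, 2.11 and 3.16 in SW480 ERβ. Only the SW480 ERβ libraries lay above 0.954, and the bin passed the filter through that group alone (group means 0.680, 0.718, 0.636 and 2.48), so it had to differ and its tests are no independent support. The ERβ difference in SW480 was 1.09 (SE 0.26, limma adjusted p = 0.000837), lost after division by the median ratio, and the difference between the lines' effects was 1.05 (SE 0.36, limma adjusted p = 0.0493), kept in 7 of 22 alternatives.

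TRAF2 (chr9:136881912-136926607, plus strand) had 5 sites, all within the gene. The highest, at 20589 bp in an intron and 557 bp past a TRAF2 transcript start, ranked 112 of the tested bins. It was at 17.3, 9.05 and 9.92 in HT29 mock, 17.4, 7.08 and 8.82 in HT29 ERβ, 6.05, 3.02 and 5.27 in SW480 mock, and 9.32, 13.2 and 11.7 in SW480 ERβ. SW480 mock lay below every other library, and the other groups overlapped. The SW480 mock mean of 4.78 was still 8.46 times input, so unlike the TRAF1 bin this one was listed in all 4 groups. SW480 mock was lower than HT29 mock (difference -1.17, SE 0.36, limma adjusted p = 0.00493) and SW480 ERβ was higher than SW480 mock by 1.13 (SE 0.32, limma adjusted p = 0.00585). Both were lost without SW480 mock 2, and the second after division by the median ratio (0.37, limma adjusted p = 0.366). The ERβ difference in HT29 was -0.15 (SE 0.49, limma adjusted p = 1.00). The effects in the 2 lines differed by 1.28 (SE 0.55, limma adjusted p = 0.110), called with the replicate block (limma adjusted p = 0.000368) and at 0.32 (limma adjusted p = 0.655) after division by the median ratio.

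The TRAF2 bin at 3189 bp was listed in SW480 ERβ alone. It became a site through the values of that group, so its tests with SW480 ERβ are no independent support. It was at 2.72, 0.988 and 1.17 in HT29 mock, 1.30, 1.28 and 1.43 in HT29 ERβ, 1.00, 1.04 and 0.984 in SW480 mock, and 4.40, 3.38 and 3.88 in SW480 ERβ. SW480 ERβ stood above all other libraries, with an ERβ difference of 1.28 (SE 0.28, limma adjusted p = 0.000283), lost only after division by the median ratio (0.74, limma adjusted p = 0.0559) among 16 alternatives. The effects in the 2 lines differed by 1.39 (SE 0.43, limma adjusted p = 0.0292), kept in 12 of 22 alternatives. At 789 bp, in a UTR exon, the ERβ difference in SW480 was 0.76 (SE 0.30, limma adjusted p = 0.0419). The bin at 4789 bp lay in an intron of TRAF2, 185 bp past another coding TRAF2 start, and overlapped an exon of MIR4479. There SW480 mock (1.39, 1.60 and 1.48) lay below HT29 mock (7.17, 2.17 and 3.06) by -0.92 (SE 0.33, limma adjusted p = 0.0179). SW480 ERβ (3.14, 4.29 and 4.32) was higher than SW480 mock by 0.97 (SE 0.28, limma adjusted p = 0.00659), or by 0.37 (limma adjusted p = 0.372) after division by the median ratio. Without the HT29 libraries numbered 1 the difference between the mock lines was -0.53 (limma adjusted p = 0.0664), and the call was lost in 6 of 17 alternatives, among them the replicate block and the loss of any 1 SW480 mock library. At 19189 bp, listed in SW480 ERβ alone, the ERβ difference in SW480 was 0.80 (limma adjusted p = 0.0291), and the bins at 789 and 19189 bp lost their calls in 9 and 7 of 16 alternatives, with 0.09 and 0.15 after division by the median ratio. The bin at 19189 bp too became a site through SW480 ERβ alone, so its test is no independent support.

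TRAF3 (chr14:102777449-102911500, plus strand) had a site at its start, listed in all 4 groups, and 3 sites in its introns that no HT29 group listed. The start bin, at 52 bp, was at 7.14, 4.39 and 4.13 in HT29 mock, 4.38, 1.70 and 2.40 in HT29 ERβ, 4.09, 5.85 and 6.02 in SW480 mock, and 4.53, 11.2 and 12.2 in SW480 ERβ. HT29 ERβ 2 and 3 lay below all other libraries, while the mock lines overlapped and differed by 0.04 (limma adjusted p = 0.943), by 0.54 (limma adjusted p = 0.0157) after division by the median ratio, and by -0.70 after division by input of the surrounding 100 kb. The ERβ difference was -0.73 in HT29 (SE 0.47, limma adjusted p = 1.00) and 0.62 in SW480 (SE 0.33, limma adjusted p = 0.121). With the replicate block both were called, with limma adjusted p-values of 0.00874 and 0.0447, and so was the difference between them of 1.35 (SE 0.55, limma adjusted p = 0.0938 without and 0.000146 with the block). After division by the median ratio the SW480 value was -0.15. SW480 ERβ was higher than HT29 ERβ by 1.39 (SE 0.44, limma adjusted p = 0.00626), a call lost with the replicate block, with division by input of the surrounding 100 kb and without HT29 ERβ 2, SW480 ERβ 2 or SW480 ERβ 3.

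The intronic TRAF3 sites at 30252 and 41852 bp reached the filter mean of 1 through the SW480 groups alone, so SW480 had to be higher there and the tests between the lines are given as a description. At 30252 bp the signal was 0.469, 0.191 and 0.466 in HT29 mock, 0.340, 0.110 and 0.350 in HT29 ERβ, 3.99, 2.86 and 1.59 in SW480 mock, and 5.44, 7.50 and 6.53 in SW480 ERβ. The lines did not overlap, nor did the SW480 groups. SW480 mock was higher than HT29 mock by 1.43 (SE 0.28, limma adjusted p = 6.09e-06), and SW480 ERβ higher than SW480 mock by 1.02 (SE 0.31, limma adjusted p = 0.00914), which was lost after division by the median ratio (0.32, limma adjusted p = 0.515) and without SW480 mock 3 or SW480 ERβ 2. At 41852 bp the signal was 0.891, 0.520 and 0.515 in HT29 mock, 0.459, 0.442 and 0.397 in HT29 ERβ, 3.22, 2.02 and 2.64 in SW480 mock, and 1.45, 2.80 and 2.59 in SW480 ERβ. Here too every SW480 library exceeded every HT29 library, with a mock difference of 1.14 (SE 0.29, limma adjusted p = 0.000652), but the SW480 groups overlapped (-0.16, limma adjusted p = 0.649, and -0.81 with 0.0271 after division by the median ratio). Input over the TRAF3 locus averaged 0.236 for HT29 mock against 0.399 for SW480 mock. With each library divided by the input of the surrounding 100 kb the mock differences were 1.17 (limma adjusted p = 0.000730) and 0.80 (limma adjusted p = 0.0303).

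At 22452 bp TRAF3 was listed in SW480 ERβ alone. The signal was 0.446, 0.240 and 0.319 in HT29 mock, 0.400, 0.430 and 0.335 in HT29 ERβ, 0.738, 0.544 and 1.34 in SW480 mock, and 4.08, 4.25 and 3.55 in SW480 ERβ. The SW480 ERβ libraries stood above all others and at 7.76 times input on average. This bin too passed the filter through SW480 ERβ alone (group means 0.335, 0.388, 0.874 and 3.96), so a difference was bound to follow and its tests are no independent support. SW480 ERβ was higher than SW480 mock by 1.42 (SE 0.28, limma adjusted p = 5.34e-05), a call kept under all 16 alternatives, with 0.92 after division by the median ratio (limma adjusted p = 0.0143). The effects in the 2 lines differed by 1.37 (SE 0.36, limma adjusted p = 0.00918), kept in 20 of 22 alternatives and lost after division by the median ratio and without SW480 mock 2. SW480 mock was higher than HT29 mock by 0.47 (SE 0.19, limma adjusted p = 0.0353), a call lost in 8 of 17 alternatives.

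**Figure D4:**
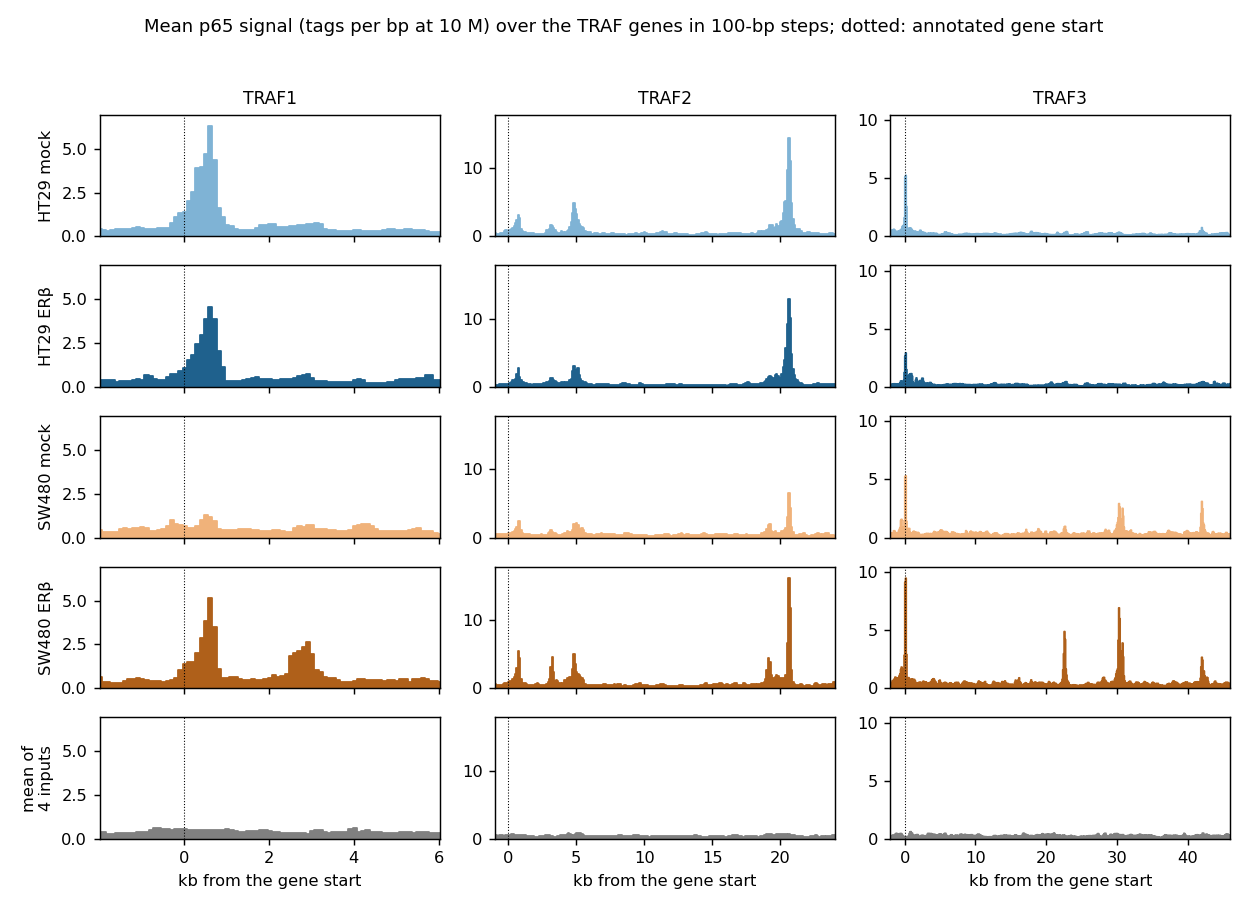
Mean p65 signal (tags per base at 10 M tags) of the 3 libraries of each group along TRAF1, TRAF2 and TRAF3, by distance from the gene start in the direction of transcription, with the mean of the 4 inputs in the bottom row. SW480 mock is lowest at the main TRAF1 bin (mean 1.07) and the main TRAF2 bin (4.78), and the SW480 groups stand above HT29 in the TRAF3 introns (2.81 and 6.49 at 30252 bp against 0.267 to 0.375 in HT29).

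Promoter windows, to which no filter on signal was applied, gave the order of the genes near their starts. By mean over the 12 ChIP libraries BIRC3 ranked 2, BIRC2 225 and TRAF3 313 of 19962 promoters, and BIRC7, TRAF1, BIRC5, XIAP and TRAF2 ranked between 4592 and 8646. In these last 5 genes the mean over the 12 libraries, 0.508 to 0.650, was close to the mean of the inputs, 0.427 to 0.736. The main TRAF1 site lies downstream of this window. BIRC3 promoter signal was 6.41 ± 2.33, 5.83 ± 3.41, 6.24 ± 0.742 and 8.57 ± 2.04 (SD, n = 3) in HT29 mock, HT29 ERβ, SW480 mock and SW480 ERβ, that of BIRC2 was 1.31 ± 0.162, 1.19 ± 0.0791, 1.53 ± 0.347 and 3.14 ± 0.468, and that of TRAF3 was 1.37 ± 0.367, 0.843 ± 0.254, 1.61 ± 0.280 and 2.53 ± 0.677. The BIRC3 groups overlapped, and the SW480 ERβ libraries of BIRC2 (2.76, 3.66 and 3.01) lay above all others, which ended at 1.93.

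Over all promoters, limma called 1 of the 8 genes higher between the mock lines (beside 9.72% higher and 2.13% lower of all promoters), none with ERβ in HT29 (beside 0.01% and 0%) or in SW480 (beside 0.01% and 0%), 3 higher in SW480 ERβ than in HT29 ERβ (beside 14.2% and 1.34%), and none for the difference between the ERβ effects (beside 0% in either direction). At an unadjusted p under 0.05 the counts were 2, 1, 2, 3 and 2 of the 8 in that order, beside 5952, 755, 2246, 6573 and 1587 of all 19962 promoters. The gene higher in SW480 mock was BIRC5 (difference 0.43, SE 0.08, limma adjusted p = 0.0247). Its libraries were at 0.345 to 0.415 in HT29 mock and 0.708 to 1.06 in SW480 mock, near the inputs of 0.530 and 0.741. The call was lost in 9 of 16 alternatives, among them input subtracted, which called 0% of all promoters. SW480 ERβ exceeded HT29 ERβ at BIRC2 by 0.91 (SE 0.14, limma adjusted p = 0.0137), at TRAF3 by 0.93 (SE 0.17, limma adjusted p = 0.0205) and at BIRC5 by 0.47 (SE 0.07, limma adjusted p = 0.0140). These calls were lost in 4, 6 and 2 of 16 alternatives. The BIRC2 and BIRC5 differences after division by the median ratio were 0.55 and 0.24 (limma adjusted p = 0.242 and 0.589), and with the replicate block limma adjusted p was 0.0681 for BIRC2 and 0.0689 for TRAF3. The BIRC2 promoter difference with ERβ in SW480 was 0.72 (SE 0.14, limma adjusted p = 0.172), or 0.13 (limma adjusted p = 0.437) after division by the median ratio. It ran up to 1.24 over 15 alternatives, 2 of which called it.

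The other genes of the pathway were read at their promoters from a list of 31, of which 30 matched the annotation. They comprise the other IAP and TRAF genes, caspases and IAP antagonists, and the receptors, adaptors and kinases of TNF signalling. NAIP and MAP3K14 were listed at 0 in all 16 libraries, as were 927 of all 19962 promoters, and are left out of the counts that follow. Between the mock lines, 3 of 28 were higher and 1 lower in SW480, near the 9.72% and 2.13% of all promoters, with a median difference of 0.12. TRADD, the adaptor that links TNF receptor 1 to TRAF2, was higher by 0.71, XAF1, an antagonist of XIAP, by 0.39 and RBCK1 (HOIL-1), a subunit of the linear ubiquitin ligase, by 0.34 (limma adjusted p = 0.00703, 0.0473 and 0.0386). The XAF1 call was lost in 10 of 15 alternatives and the RBCK1 call in 10 of 16. The TRADD promoter in SW480 mock, at 1.63 to 1.79, stood at its input of 1.73, and with input subtracted its difference was -0.28. TANK, a TRAF-binding regulator of NFκB, differed by -1.37 (limma adjusted p = 0.00703), a call kept in 15 of 16 alternatives. TANK lost it only with input subtracted, a setting that called 0% of all promoters between the mock lines. Its promoter was at 3.41, 2.02 and 1.97 in HT29 mock, 3.36, 1.81 and 1.65 in HT29 ERβ, 0.372, 0.263 and 0.318 in SW480 mock, and 0.338, 0.404 and 0.484 in SW480 ERβ, with no overlap between the lines. With ERβ none of the 28 was called in either line or for the difference between the lines, with medians of -0.03, 0.04 and 0.07. At an unadjusted p under 0.05 these counts were 0, 2 and 4. Between the ERβ groups 4 of 28 were higher in SW480, near the 14.2% of all promoters (TNFRSF1A 0.36, TRADD 0.43, CD40 0.31 and TAB1 0.42) and TANK was lower in SW480, beside 1.34% of all promoters, with a difference of -1.18 (limma adjusted p = 0.0144). The calls were lost in 9 of 16 alternatives at TNFRSF1A, 7 of 16 at TRADD, 11 of 16 at CD40 and 9 of 15 at TAB1, and after division by the median ratio these differences were 0.13, 0.16, 0.11 and 0.26.

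As a description, the promoters whose log2 signal followed that of BIRC3 most closely over the 12 ChIP libraries, among 1106 promoters with a mean of at least 1, were CCDC3 (Pearson r = 0.975), GPBP1 (r = 0.975) and PTK6 (r = 0.974). For BIRC2 they were KREMEN2 (r = 0.977), PDE4A (r = 0.958) and ZNF385C (r = 0.958). The points share libraries, groups and the library ratios given above, and no test was made.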

How the data were processed

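p65 ChIP-Seq was measured in 12 ChIP libraries and 4 input libraries of 4 groups, grouped by the line and transfection in the labels. The authors mapped unique reads to GRCh38 with STAR and used HOMER to make 1 track per library, deposited as a coverage signal in tags per base, with totals brought to 10 M tags and fragments set at 100 bases. Stretches under 0.05 are absent from the tracks. Tag counts and depth cannot be recovered from such values, so count tests were not run and precision rests on the spread between libraries.

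From the tracks, mean signal was computed in bins of 200 bp and in promoters, a window of 1 kb before to 100 bp past the gene start of GENCODE release 44, and compared on log2(signal + 1) by limma 3.58.1 in R 4.3.3, two-sided, with a mean trend and Benjamini-Hochberg adjustment over all tested bins or promoters. Bins tested had a mean over the 12 ChIP libraries of at least 1 and at least 2 times the mean of the inputs. Contrasts within or between lines used the 6 libraries of both groups, and the difference between the ERβ effects used all 12. BIRC3 and BIRC2 were compared within libraries, with exact permutation tests between groups and, within pairs, exact sign-flip tests. Tables and figures were made with Python 3.11.15, numpy 2.4.6, pandas 2.3.3, scipy 1.17.1, matplotlib 3.10.9 and pysam 0.24.0. The track reader and the limma step were tested on simulated data.

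The labels give each group replicate numbers 1 to 3. After group means were removed, the correlation over the tested bins between same-numbered mock and ERβ libraries was 0.479, 0.179 and 0.194 in HT29 and 0.276, 0.118 and 0.179 in SW480, so the numbers were read as pairs within lines. The main limma fits left this pairing out, and only the replicate block and the sign-flip tests used it. In HT29, mock 2 correlated more with ERβ 3 (0.205) than with ERβ 2. Between lines, libraries of the same number correlated by -0.053 to 0.047 and were not read as pairs. A replicate block in a contrast between lines therefore fits no pairing and is given as another setting of the fit.

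Named features were the 8 genes at their promoters, their highest bins and the highest bin of each site. The bins at -583 and -383 bp of BIRC3 and at -3182 bp of BIRC7 were singled out after their values were seen. Of the other pathway genes those called were named. κB and AP-1 matches were searched in GRCh38. Among RefSeq promoters of 300 bp on GRCh38, κB matches were counted in 3293 of 34961 (9.42%), with 2 in BIRC3, 1 in TRAF3, 1 in BIRC7 and none in BIRC2, XIAP, TRAF1 or TRAF2. The genes, lists and tests were chosen with earlier results of these data known. Alternatives covered the fit, pairing, pseudocount, scaling, filter, window, input and each library left out. In contrasts between the mock lines or the ERβ groups, leaving out both HT29 libraries numbered 1 is the same fit as leaving out the single one in the contrast. That fit is counted 2 times in the numbers of alternatives there. Those using the input of the surrounding 100 kb, listed bins alone, no mean trend and the highest bins of BIRC3 and BIRC2 with their pairing were chosen after seeing the data.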

Additional observations from a re-analysis of the deposited data

Results flagged for a closer look

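The ERβ effect differed between SW480 and HT29, by the limma term for the difference of the 2 effects over all 12 ChIP libraries, at 4 of the 64 tested bins of the 8 loci (6.25%), beside 7.82% of all tested bins. That fit left the pairing by replicate number out. With replicate number as a block 35 of the 64 bins (54.7%) were called, beside 47.3% of all. The values of the 4 bins below are from the fit without the block. At TRAF3 (22452 bp) the difference was 1.37 on the log2(signal + 1) scale (SE 0.36, limma adjusted p = 0.00918). At TRAF1 it was 1.65 (SE 0.52, limma adjusted p = 0.0293) at 672 bp and 1.05 (SE 0.36, limma adjusted p = 0.0493) at 2872 bp. At TRAF2 (3189 bp) it was 1.39 (SE 0.43, limma adjusted p = 0.0292). In each of these bins all 3 SW480 ERβ libraries exceeded all 3 SW480 mock libraries, while the HT29 groups overlapped. All 4 calls were lost after division by the median ratio and without SW480 mock 2. The bins at TRAF3 and at 2872 bp of TRAF1 passed the filter on low values through SW480 ERβ alone, so a difference there was bound to follow. The TRAF2 bin was listed in SW480 ERβ alone, so its test is no independent support either.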

How the results depend on the processing

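Of the counts and group values, 184 recomputed values stayed within the limits set for them and 62 moved. Of the recomputed values of named bins and promoters, 967 kept their direction and side of the threshold, 221 lost the call, 39 gained one and 17 turned direction.

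For the 64 tested bins, the calls between the mock lines (29) became 18 to 33 with 1 library left out (24.6% and 37.4% of all tested bins in those settings). The ERβ calls in HT29 (0) became 1 with the replicate block (0.735% of all). Those in SW480 (25) became 22 after scaling by the median signal of unbound bins (29.7% of all), 3 after division by the median ratio (4.35%), 39 after division by input of the surrounding 100 kb (46.8%), and 8 to 42 with 1 library left out (15.5% and 63.9%). Calls between the ERβ groups (22) became 12 with the block (20.8%), 34 after division by the median ratio (50.6%) and 14 to 28 with 1 library left out (23.3% and 47.0%). Calls for the difference of the ERβ effects (4) became 35 with the block (47.3%), 0 after division by the median ratio (1.24%), 20 with input subtracted (28.5%), 24 after division by input of the surrounding 100 kb (23.9%), 12 without both HT29 libraries numbered 1 (17.2%), and 0 to 21 with 1 library left out (3.01% and 30.4%). Other filters changed the bins tested. With a mean of at least 0.5 and no limit over input, 998 bins of the 8 loci were tested. Between the mock lines 94 (9.42%) were called, 57 higher and 37 lower in SW480, beside 24.8% of all bins tested so. With ERβ in SW480, 23 (2.30%) were called, beside 0.621%. Between the ERβ groups 116 (11.6%) were called, 107 higher and 9 lower in SW480, beside 21.6%. For the difference of the effects 1 was called, beside 0.0996%. Over listed bins alone, 10 of 44 were called for that difference, beside 19.3% of all. Between the mock lines, which the numbers do not pair, the block gave 21 calls (28.9%). Among the highest bins of the 19 sites, the block took the calls from 10 to 6 between the mock lines and from 10 to 6 between the ERβ groups, where it called 28.9% and 20.8% of all tested bins.

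For the 8 promoters, the call between the mock lines (1) became 2 in one fit of all libraries or with a mean of at least 0.5 (14.8% and 24.5% of all promoters), and 4 after division by the median ratio (30.5%). It became 0 with the block, the narrow window, input subtracted or without both HT29 libraries numbered 1 (4.22%, 4.11%, 0% and 8.30%). With 1 library left out it was 0 to 1 (3.56% to 8.30%). Calls in SW480 with ERβ (0) became 1 with the filter at 0.5 (5.82%) and 3 with input subtracted (15.4%). Calls between the ERβ groups (3) became 1 with the block or after division by the median ratio (3.98% and 0.877%), 5 with input subtracted (11.1%), and 0 to 3 with 1 library left out (2.57% to 12.1%). Calls for the difference of the effects (0) became 4 with input subtracted (20.4%).

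Listed bins fell to 14 in HT29 mock and 10 in HT29 ERβ at a mean of at least 3, and to 11 in HT29 ERβ and 6 in SW480 mock at 6 times input. BIRC3 minus BIRC2 in the narrow promoter was 2.71, 2.53, 2.68 and 2.33 in HT29 mock, HT29 ERβ, SW480 mock and SW480 ERβ, and at the highest bins 2.48 in HT29 mock and 0.94 in SW480 ERβ.

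Direction turned after division by the median ratio for the SW480 ERβ difference at BIRC3 (-183 bp, -0.43), TRAF3 (52 bp, -0.15) and BIRC7 (-2982 bp, -0.15), for the difference of effects at BIRC3 (-0.42) and BIRC2 (-1110 bp, -0.01), and for the HT29 ERβ difference at TRAF2 (20589 bp, 0.05). With 1 library left out, the HT29 ERβ difference ran from -0.59 to 0.02 at BIRC3, -0.52 to 0.04 at TRAF1 (672 bp) and -0.50 to 0.12 at TRAF2 (20589 bp), each above 0 without HT29 mock 1 and the last also without HT29 ERβ 2 (0.09). The mock difference at TRAF3 (52 bp) was -0.70 after division by input of the surrounding 100 kb and between -0.08 and 0.25 with 1 library left out, and -0.28 for the TRADD promoter with input subtracted. The SW480 ERβ difference at TRAF3 (41852 bp) was 0.04 without SW480 ERβ 1. The cause of these changes was not tested. Scaled tracks without tag counts limit what can be said of low bins, and 3 libraries a group limit every test.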
